A study of Mus musculus with 6 samples.

Results

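The genes described here are the tubulins and a set of microtubule regulators that neurons use to migrate, 35 of the 24391 gene symbols in the deposited count table. They were chosen by symbol: all 18 rows for numbered alpha-, beta- and gamma-tubulin genes, and 17 named genes of the doublecortin family, the Lis1 complex, the structural microtubule-associated proteins, the stathmins and the Cdk5 kinase. RNA was measured in 6 hemibrains of mice at postnatal day 0. The groups were Celf2 -/- pups (null, n = 3, numbered 2, 4 and 10), whose Celf2 gene is disrupted on both chromosomes, and Celf2 +/- pups (heterozygous, n = 3, numbered 6, 7 and 11), which keep a working allele and are called controls in the titles. Every pup thus carried at least 1 Celf2 mutation and no wild-type group was used. CELF2 is an RNA-binding protein, and the comparison asks how transcript levels differ when the remaining allele is lost as well. The labels give no litter, sex, batch, strain or construction of the allele, so p-values measure the spread between these pups only.

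Microtubules are polymers of paired alpha- and beta-tubulin, and gamma-tubulin starts new ones. A migrating neuron pushes its leading process forward on a microtubule track and then pulls its nucleus along it with the motor dynein, which Lis1 (Pafah1b1), Nde1 and Ndel1 regulate. Doublecortin, the MAP proteins and tau bind the polymer and stabilise it, stathmins bind free tubulin dimers, and the kinase Cdk5 phosphorylates several of these proteins once p35 or p39 activates it. Mutations in TUBA1A, TUBB2B, TUBB3, DCX and PAFAH1B1 cause cortical malformations in humans.

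Library totals ran from 28831997 to 36531980 counts. Reads of Rn45s, the precursor of ribosomal RNA, made up 11.8% of null pup 2 and 0.194% to 1.27% of the other libraries. Celf2 itself was counted at 448, 390 and 331 CPM (counts-per-million units on TMM-scaled library sizes) in null pups 2, 4 and 10, against 459, 403 and 362 CPM in heterozygous pups 6, 7 and 11 (log2 fold change -0.07, SE 0.12, edgeR adjusted p = 0.955). The gene total does not show which exons were read, so it does not check the labels, and each direction below rests on them. Neurons were well represented: Snap25, a synaptic membrane protein of neurons, stood at 247 to 258 CPM in null libraries and 241 to 275 CPM in heterozygous ones. Of the 7 neuronal markers, 6 had a negative fold change, against 8006 of the 15925 genes tested. Their summed level was 2376 to 2643 CPM in null and 2530 to 3045 CPM in heterozygous libraries. Hindbrain and spinal cord markers differed more between the groups. Their summed level was 3.27 to 7.41 CPM in null and 11.9 to 150 CPM in heterozygous libraries, 5 of the 6 tested markers were lower in null pups at an unadjusted p under 0.05, where 2.93% of all genes were (4 called by DESeq2), and Hoxa5, Hoxb5 and Hoxb8 had 0 counts in 1, 1 and 3 libraries.

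Tubulin genes resemble each other closely. The end of the coding sequence encodes the carboxy-terminal tail, the part that protrudes from the microtubule surface, and is a stretch in which some of them differ. The last 60 coding bases, stop codon included, are shown for Tuba4a (chromosome 1), the gene with the largest difference, read 5′ to 3′ from a GENCODE M21 transcript (mouse reference GRCm38). Capitals mark the last amino acid codon and the stop codon.
Tuba4a: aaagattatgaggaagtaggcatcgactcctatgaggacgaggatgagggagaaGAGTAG

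Over the whole coding sequence, Tuba1a was 98.3% identical to Tuba1b, 97.1% to Tuba1c and 84.7% to Tuba4a. Of all 50-base words in the longest annotated transcript, 75.5% in Tuba1a, 83.1% in Tuba1b and 61% in Tuba1c also occur in other annotated genes, so how these 3 rows divide their reads depends on a counting method that none of the sources used here names.

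The beta-tubulins show both extremes, and the last 60 coding bases of 3 of them are printed from the same transcript set (Tubb2b and Tubb2a on chromosome 13, Tubb3 on chromosome 8). Capitals mark bases that are not matched in the alignment of the whole coding sequence with Tubb2b.
Tubb2b: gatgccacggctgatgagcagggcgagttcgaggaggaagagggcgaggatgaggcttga
Tubb2a: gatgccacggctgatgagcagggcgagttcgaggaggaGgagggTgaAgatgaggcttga
Tubb3: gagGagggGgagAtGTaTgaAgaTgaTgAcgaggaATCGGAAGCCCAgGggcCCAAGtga

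Tubb2a and Tubb2b, 96.5% identical, differed at 3 of the 60 bases and share 49.6% and 39.3% of their 50-base words with other genes, mainly each other and the processed pseudogene Tubb2a-ps2. Tubb3, the neuron-specific beta-tubulin, differed from Tubb2b at 28 bases and shares 0% of its words with other genes.

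Tuba1a, the alpha-tubulin of newborn neurons, was the most abundant of the 35 genes per unit length, at rank 3 of all 24391 symbols. Its level averaged 4065 CPM per kb over the 6 libraries, ahead of Tubb2b (2317), Tubb3 (1339), Tubb5 (1256) and Tubb2a (881 CPM per kb). Together the 18 tubulin rows took 1.77%, 1.98% and 1.89% of all counts in null pups 2, 4 and 10, against 2.03%, 1.97% and 1.8% in heterozygous pups 6, 7 and 11. Leaving Rn45s out of the totals, the shares were 2%, 1.99% and 1.9% in null pups, against 2.06%, 1.98% and 1.81% in heterozygous pups. The ranges overlapped on either scale.

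The make-up of the alpha-tubulin transcripts was dominated by a single gene in every library. By level per length, Tuba1a formed 95.5%, 95% and 94.6% of the class in null pups 2, 4 and 10, against 94.1%, 94.2% and 94.6% in heterozygous pups 6, 7 and 11. Tuba1b, a broadly expressed relative, formed 4.19%, 4.44% and 4.84% in null pups, against 5.31%, 5.15% and 4.84% in heterozygous pups. For both genes null pup 10 and heterozygous pup 11 were equal to the digits given. Tuba4a formed 0.231% to 0.417% in null and 0.483% to 0.567% in heterozygous libraries, and Tuba1c and Tuba8 0.106% or less each.

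Among beta-tubulins, 4 genes made up nearly all transcripts, in similar proportions in every library. Tubb2b held 38.1% ± 1.06 of the class in null pups and 38.2% ± 0.293 in heterozygous pups (SD, n = 3 each). Tubb3 held 22.1% ± 1.05 in null and 21.9% ± 0.698 in heterozygous pups. Tubb5, widely expressed in dividing and newborn cells, held 21.2% ± 0.644 in null and 20.1% ± 0.248 in heterozygous pups, and Tubb2a 14% ± 0.86 in null and 15.1% ± 0.54 in heterozygous pups. Tubb4a held 2.43% to 2.68% in every library, and Tubb4b 1.85% to 1.95% in null and 1.99% to 2.08% in heterozygous libraries. Like Tubb4b, Tubb5 and Tubb2a had shares that did not overlap between the groups. Tubb5 held 20.6% to 21.9% in null and 19.9% to 20.3% in heterozygous libraries. Tubb2a held 13% to 14.6% in null and 14.7% to 15.7% in heterozygous libraries. In CPM the groups overlapped for Tubb5, Tubb2a and Tubb4b. Shares within a class depend on each other, so these are not separate observations. Differences in share were not tested, and no background over other genes was made for them. The 2 gamma-tubulin genes were close to equal, Tubg1 taking 46.3% to 56.4% of the class in null and 48.2% to 51% in heterozygous libraries.

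**Figure D1:**
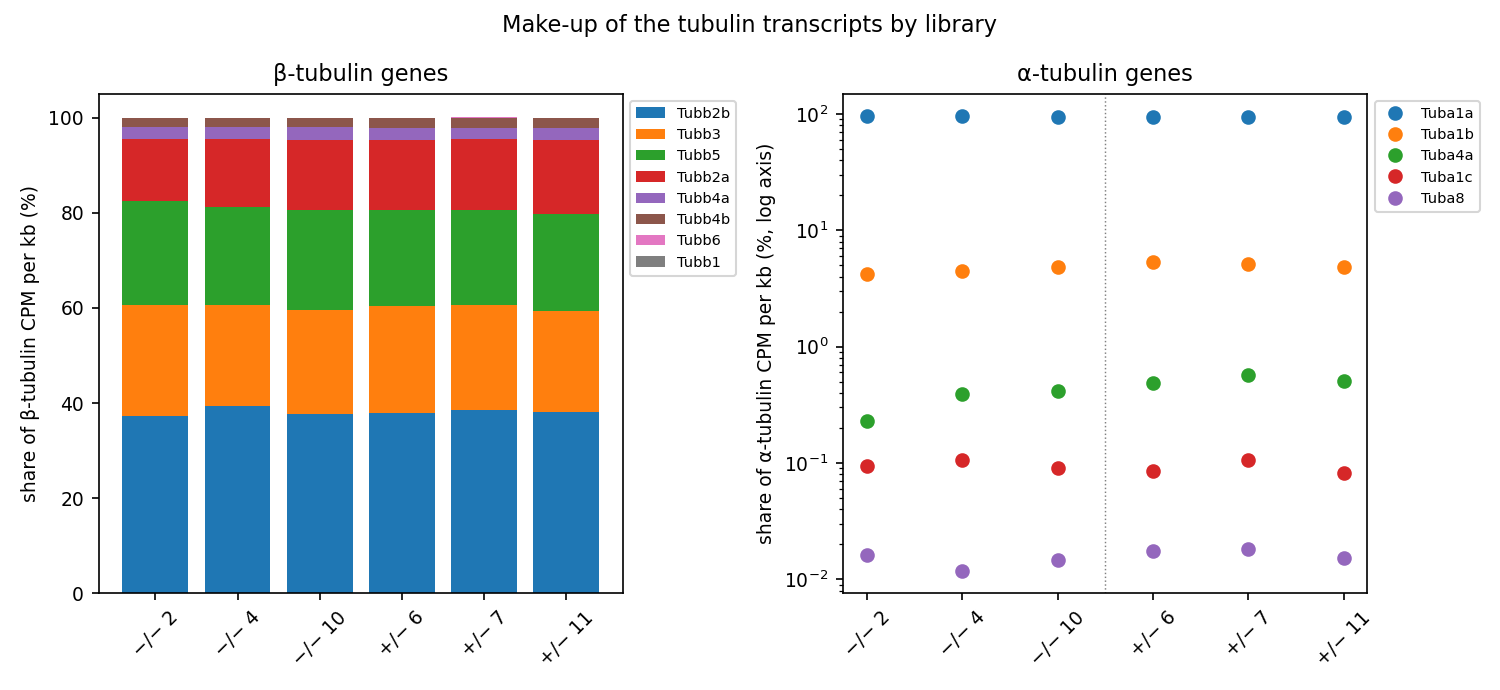
Share of each tubulin gene in its class by library, from CPM per kb of the deposited gene length. Left, stacked beta-tubulin shares in percent (the pseudogene row left out), right, alpha-tubulin shares in percent on a log axis, with Celf2 -/- libraries left of Celf2 +/- libraries. Tubb2b stays between 37.3% and 39.3% and Tuba1a between 94.1% and 95.5%. Tuba4a reaches at most 0.417% in Celf2 -/- and at least 0.483% in Celf2 +/- libraries. The shares of Tubb5, Tubb2a and Tubb4b also do not overlap between the groups, while the CPM of these genes do.

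None of the 35 genes passed the test over all genes. Of the 35, 32 had enough counts to be tested, and edgeR called 0 of them at an adjusted p of 0.05, against 0.00628% of the 15925 genes tested (1 gene). DESeq2 also called 0 of the 32, against 0.402% of all genes. At an unadjusted p under 0.05, edgeR counted 3 of the 32 (9.38%), against 7.06% of all genes: 1 higher in null pups (Dcx), where 4.13% of all genes were, and 2 lower (Tuba4a and Map1a), where 2.93% were. The same 3 genes were those whose groups did not overlap in CPM, where 12.7% of all genes did not overlap, 6.21% with null pups higher and 6.47% with null pups lower. For 27 of the 32 (84.4%) the log2 fold change lay within 0.2 of 0, against 75.7% of all genes. The shares of genes past the unadjusted threshold or without overlap were near the background. The median log2 fold change was 0.03 over the 32 genes and 0.00 to 2 decimals over all genes, with 17 positive and 15 negative values. For 27 of the 32 the 95% interval lay wholly within a 1.5-fold change in either direction, which held for 70.9% of all genes. The exceptions were Tuba4a, Tuba8, Tubb6, Stmn1 and Stmn4.

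**Figure D2:**
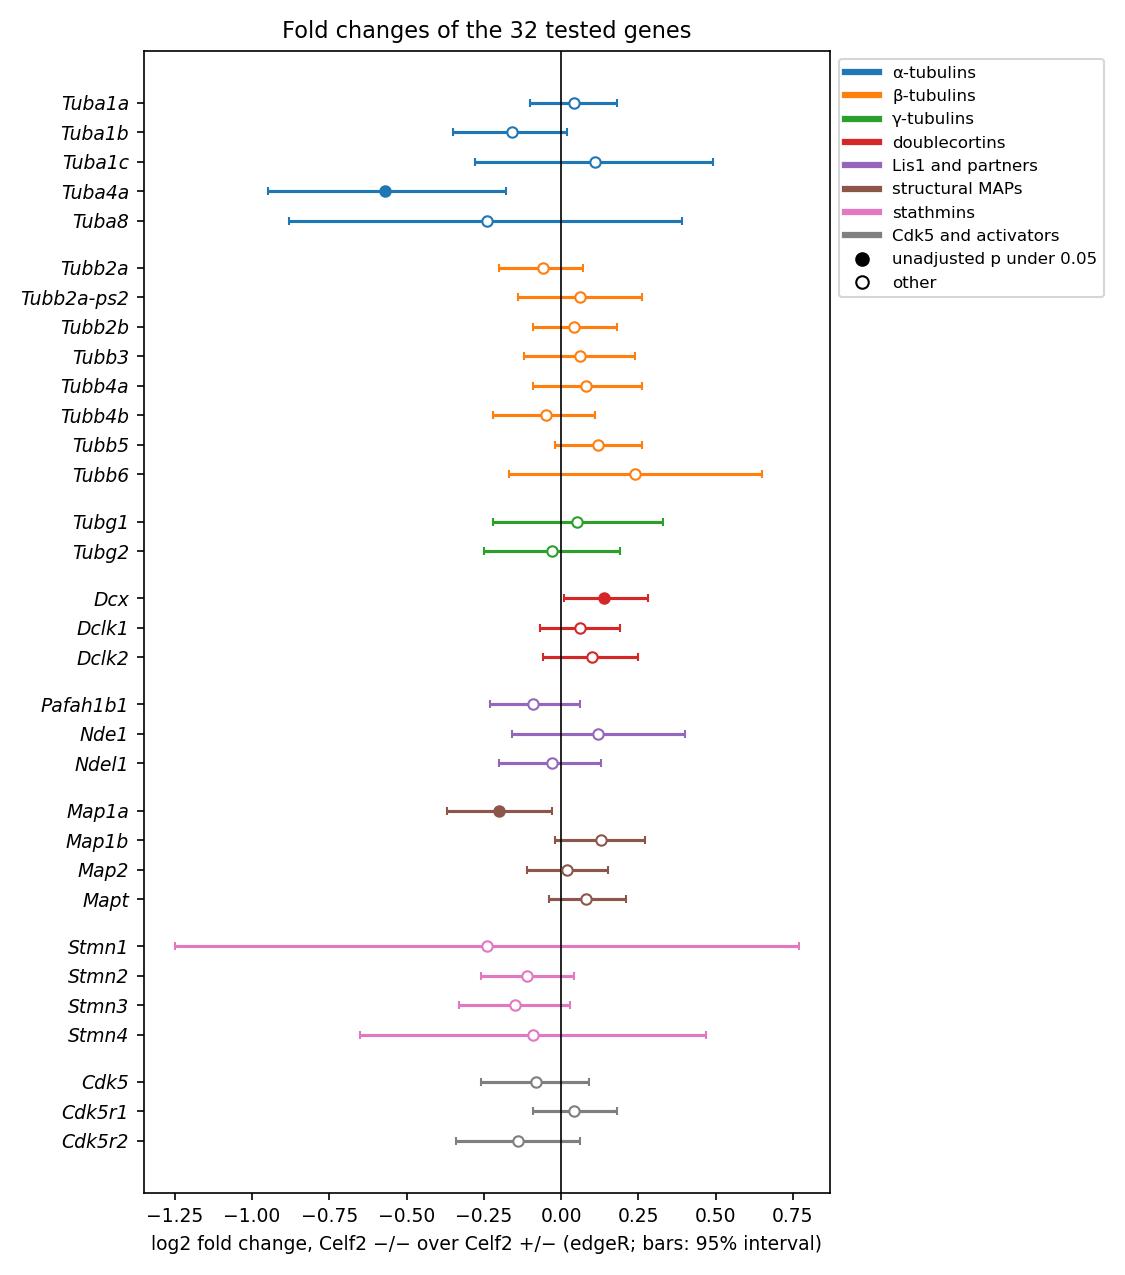
Log2 fold change, Celf2 -/- over Celf2 +/-, of the 32 tested genes by role, with 95% intervals from edgeR's fit (n = 3 each). Filled points have an unadjusted p under 0.05: Tuba4a at -0.57, Map1a at -0.20 and Dcx at 0.14. The other 29 intervals include 0.

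The neuronal alpha-tubulin did not differ beyond the spread between pups. Tuba1a was at 6932, 6599 and 6130 CPM in null pups 2, 4 and 10, against 6736, 6505 and 5906 CPM in heterozygous pups 6, 7 and 11. Its groups overlapped, with the highest value in null pup 2 and the lowest in heterozygous pup 11 (log2 fold change 0.04, SE 0.06, 95% interval -0.10 to 0.18, edgeR adjusted p = 0.954). Tuba1b was at 299, 303 and 308 CPM in null pups, against 373, 349 and 297 CPM in heterozygous pups. Heterozygous pup 11 lay with the null pups and the other heterozygous pups above them (-0.16, SE 0.08, adjusted p = 0.757). The less abundant Tuba1c (0.11) and Tuba8 (-0.24), at up to 9.16 and 1.14 CPM, had wider intervals, -0.28 to 0.49 for Tuba1c and -0.88 to 0.39 for Tuba8.

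Of the 32 genes, Tuba4a showed the largest difference between the groups. This alpha-tubulin gene, whose printed coding end has a glutamate codon before the stop, was counted at 21.7, 35.1 and 34.8 CPM in null pups 2, 4 and 10, against 44.7, 50.5 and 40.7 CPM in heterozygous pups 6, 7 and 11. Every null library lay below every heterozygous library, and null pup 2 lay furthest down. The mean was 30.5 ± 7.69 CPM in null and 45.3 ± 4.94 CPM in heterozygous pups (SD, n = 3 each), a log2 fold change of -0.57 (SE 0.17, 95% interval -0.95 to -0.18). It did not pass over all genes (edgeR unadjusted p = 0.00863, adjusted p = 0.537, DESeq2 adjusted p = 0.131). The exact two-sided permutation p over the 20 splits of 3 against 3 was 0.1, the smallest this design allows and the value of every gene without overlap. The unadjusted p stayed under 0.05 in all 15 alternatives, with log2 fold changes of -0.68 to -0.37. The value nearest 0, -0.37, was the one without null pup 2, the library with the Rn45s excess.

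Several marker genes of other cell types also had lower values in null pups at an unadjusted p under 0.05, where 2.93% of all genes did. Of those named here, edgeR called none and DESeq2 called Nefm alone. Of 7 oligodendrocyte lineage markers, 2 were among them, Mag and Mbp, and the summed level was 337 to 416 CPM in null and 361 to 447 CPM in heterozygous libraries, with no marker at 0. Of 7 astrocyte markers, 4 were among them, and the sum was 1010 to 1318 CPM in null and 1355 to 1494 CPM in heterozygous libraries, again with none at 0. Of 7 neuronal markers, 2 were among them, Nefl and Nefm, and the sum was 2376 to 2643 CPM in null and 2530 to 3045 CPM in heterozygous libraries. The ranges of the oligodendrocyte and neuronal sums overlapped. The hindbrain sum, like Tuba4a, was lowest in null pup 2 (3.27 CPM) and highest in heterozygous pup 7 (150 CPM). In heterozygous pups 6 and 11 that sum was 18.3 and 11.9 CPM. Without heterozygous pup 7 the log2 fold change of Tuba4a was -0.48 (edgeR unadjusted p = 0.0321). The part of these cell types and of hindbrain tissue in the Tuba4a values was not tested. In whole hemibrains fewer cells of a type and less RNA per cell cannot be told apart. Of the 50-base words of Tuba4a, 48.8% occur in other annotated genes on either strand. In the annotation, 37.3% of the exonic bases of Tuba4a overlap exons of Stk16, a kinase gene on the opposite strand. Stk16 was at 68, 56 and 54 CPM in null pups, against 65.6, 61.7 and 57.3 CPM in heterozygous pups (-0.05, SE 0.11). None of the sources used here says whether counting used strand. Without strand, reads from the overlapping exons cannot be told apart. The deposited length of Tuba4a is 2053 bases, against 3701 exonic bases in this annotation, so the overlap in the counted gene model is not known.

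The major beta-tubulins did not differ beyond the spread between pups. Tubb2b was at 4526, 4676 and 4358 CPM in null pups 2, 4 and 10, against 4631, 4511 and 4014 CPM in heterozygous pups 6, 7 and 11 (log2 fold change 0.04, SE 0.06, interval -0.09 to 0.18, edgeR adjusted p = 0.944). Tubb3 was at 2533, 2268 and 2259 CPM in null pups, against 2464, 2329 and 1992 CPM in heterozygous pups (0.06, SE 0.08, interval -0.12 to 0.24, adjusted p = 0.944). In both genes heterozygous pup 11 held the lowest value and the remaining pups overlapped. Tubb5 was at 3649, 3367 and 3366 CPM in null pups, against 3400, 3205 and 2940 CPM in heterozygous pups (0.12, SE 0.06, adjusted p = 0.765), where only heterozygous pup 6 reached into the null range. Tubb2a (-0.06), Tubb4a (0.08), Tubb4b (-0.05), Tubb6 (0.24) and the row of the pseudogene Tubb2a-ps2 (0.06) gave adjusted p-values of 0.864 to 0.946. Tubb4b shares 55.5% of its 50-base words, mainly with its annotated pseudogenes.

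**Figure D3:**
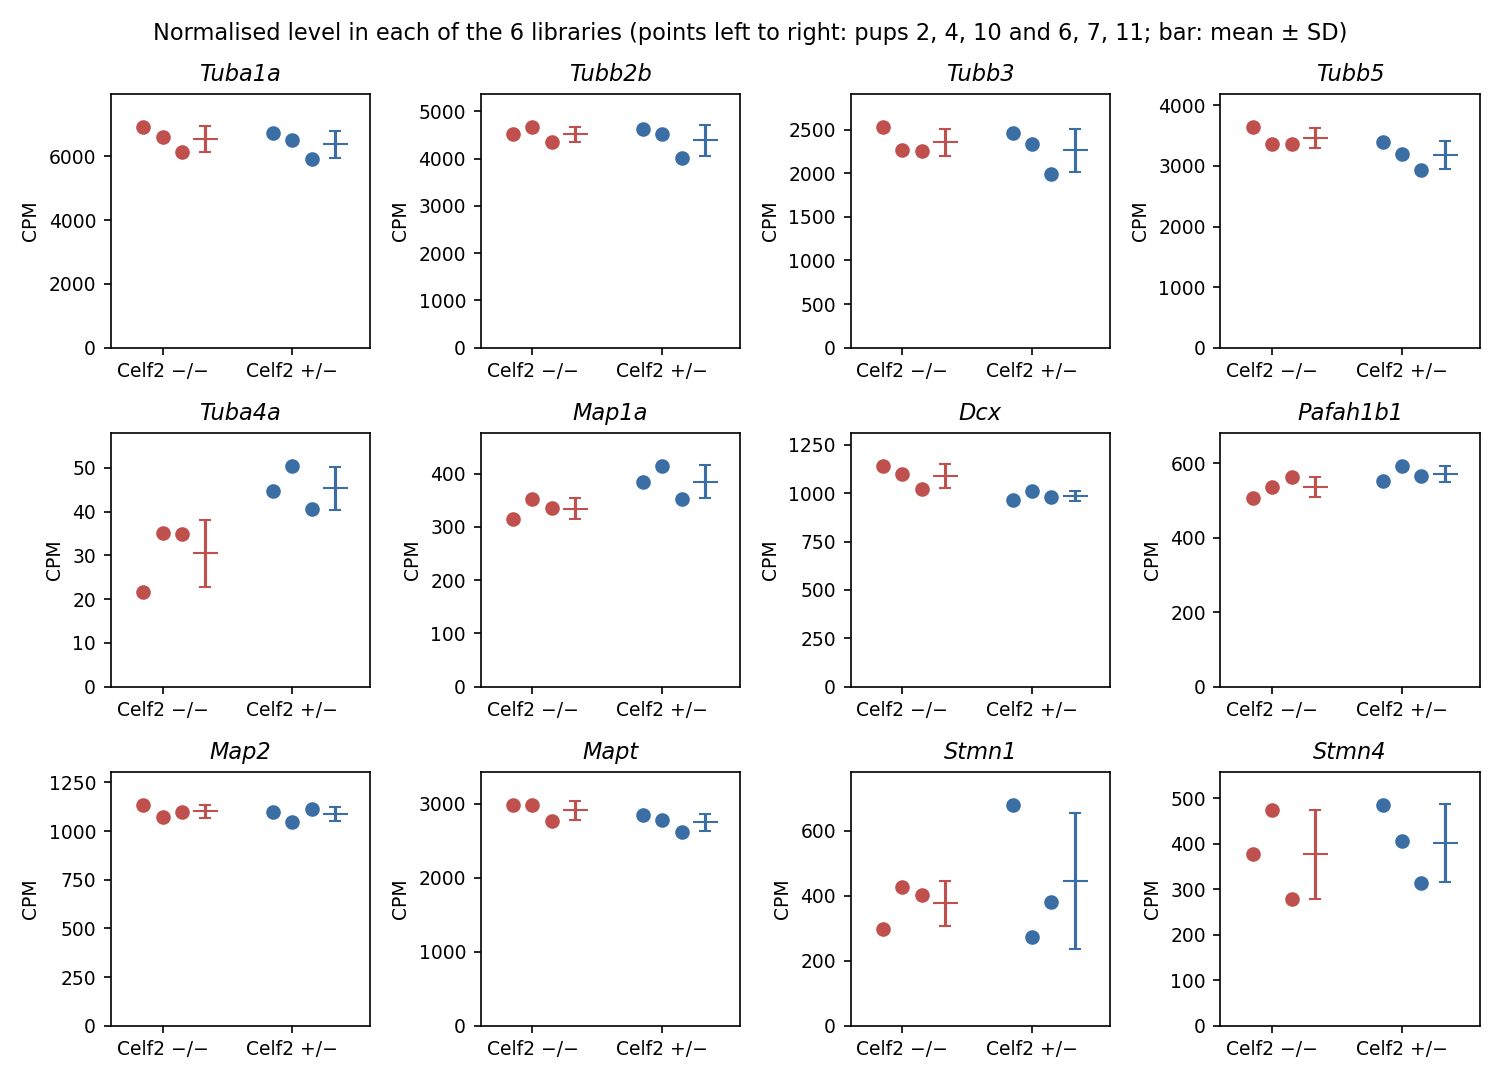
CPM of 12 of the genes in each library, on linear axes from 0, with Celf2 -/- pups left of Celf2 +/- pups and the mean ± SD beside each group (n = 3). Tuba4a and Map1a lie lower and Dcx higher in Celf2 -/- pups without overlap, while Tuba1a, Tubb2b and Tubb3 overlap and Stmn1 reaches from 274 to 681 CPM within the Celf2 +/- group.

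The gamma-tubulins, which seed microtubules in the gamma-tubulin ring complex, were measured at about equal levels per length (23.3 CPM per kb for Tubg1 and 23.1 for Tubg2). Tubg1 was at 44.2, 34 and 36.3 CPM in null pups, against 41.7, 34 and 34.6 CPM in heterozygous pups (0.05, SE 0.13, edgeR adjusted p = 0.965). Tubg2 was at 37.7, 43.6 and 40.4 CPM in null pups, against 44.2, 40.5 and 39.6 CPM in heterozygous pups (-0.03, SE 0.10, adjusted p = 0.98). Null pup 2 held the highest Tubg1 and the lowest Tubg2 value, and the groups overlapped for both genes.

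The remaining 3 tubulin genes had too few counts to test. Tubb1, the beta-tubulin of platelets, had 3 to 11 counts per library. Tuba3a had 0, 0 and 1 counts in null pups 2, 4 and 10, against 0, 1 and 2 in heterozygous pups 6, 7 and 11. Tuba3b, like Tuba3a known from testis, had 0 counts in all 6 libraries, which allows up to 0.118 CPM in null pup 2 (3 counts, counting error only). The part of read assignment in these zeros was not tested. Tuba3a and Tuba3b share 35.3% and 29.5% of their 50-base words with other genes, and the haemoglobin genes Hba-a1, Hbb-bt and Hbb-bs were also at 0 in all 6 libraries, where the erythroid gene Alas2 had 146 to 295 counts.

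Doublecortin, a microtubule-binding protein made by migrating neurons, was measured slightly higher in null pups. Dcx was at 1142, 1098 and 1021 CPM in null pups 2, 4 and 10, against 962, 1012 and 979 CPM in heterozygous pups 6, 7 and 11. The groups did not overlap, but null pup 10 lay just above heterozygous pup 7. The mean was 1087 ± 61.2 CPM in null and 984 ± 25.2 CPM in heterozygous pups (SD, n = 3 each), a log2 fold change of 0.14 (SE 0.06, interval 0.01 to 0.28). Dcx did not pass over all genes (edgeR unadjusted p = 0.0417, adjusted p = 0.688). Its exact two-sided permutation p was 0.1, the smallest possible here and the value of every gene without overlap, so it adds nothing to the overlap itself. The unadjusted p was under 0.05 in 6 of 15 alternatives and above it without any single library except null pup 10. With library size alone the log2 fold change was 0.05 (edgeR unadjusted p = 0.528), a scaling that also moves the median of all genes to -0.086. Its relatives that carry a kinase domain, Dclk1 and Dclk2, overlapped between the groups. Dclk1 was at 765 to 802 CPM in null and 736 to 769 CPM in heterozygous libraries (log2 fold change 0.06, SE 0.06), and Dclk2 at 264 to 302 CPM in null and 254 to 266 CPM in heterozygous libraries (0.10, SE 0.07). Telencephalon markers were higher beside Dcx, 6 of 8 at an unadjusted p under 0.05, against 4.13% of all genes (2 called by DESeq2), and none at 0, with a summed level of 1231 to 1398 CPM in null and 892 to 1011 CPM in heterozygous libraries. Neuronal markers went the other way, 6 of 7 with a negative fold change (median -0.09), against 8006 of the 15925 genes tested. The part of either list in the Dcx values was not tested.

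CELF proteins bind GU-rich RNA, so the 7 bases TGTTTGT, in DNA letters, were searched on the sense strand of every annotated 3′ UTR. At least 1 match was present in 14 of the 31 tested genes of the set with such an annotation (45.2%) and in 31.7% of 14426 genes tested. A longer element, 2 overlapping copies of the 7 bases that start 4 bases apart, was searched first, and the shorter one was chosen after that result was seen. The longer element was present in 1 of the 31 genes (3.23%, Dclk1) and in 4.42% of all genes. The set thus lay above all genes with the short element. With the long one its share rests on 1 gene and lay near that of all genes. Neither difference was tested. The median of the longest annotated 3′ UTR was 1061 bases in the set and 1322 bases in all genes. Tuba4a, the gene with the largest difference, held a match, while Dcx (a 3′ UTR of 7709 bases) and Map1a (2745 bases) held none. The major neuronal genes were also divided, with a match in Tubb2b and none in Tuba1a or Tubb3. The sites of Tuba4a (chromosome 1), Tubb2b (chromosome 13) and Pafah1b1 (chromosome 11) are shown with their flanks, from GENCODE M21 on GRCm38, as the gene that differed most and a pair that did not differ beyond its spread. Capitals mark the 7 bases.
Tuba4a: caatctagtTGTTTGTgccacagca
Tubb2b: aagctcaggTGTTTGTttcttcttt
Pafah1b1: aataggataTGTTTGTtttggcagc

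A match describes the letters only and shows no binding. Of the 3 genes under the unadjusted threshold, 1 thus held the element and 2 did not.

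The genes of the Lis1 complex, which positions dynein force on the nucleus, did not differ beyond their spread. Pafah1b1 was at 507, 537 and 563 CPM in null pups 2, 4 and 10, against 551, 593 and 564 CPM in heterozygous pups 6, 7 and 11. Null pup 10 lay within the heterozygous range (log2 fold change -0.09, SE 0.07, interval -0.23 to 0.06, edgeR adjusted p = 0.857). Ndel1, which ties Lis1 to dynein in neurons, held between 75.9 and 79.9 CPM in all 6 libraries and was the steadiest of the 32 genes, with a highest value 1.05 times the lowest (-0.03, SE 0.07). Nde1, its counterpart in progenitors, was at 13.5 to 16.3 CPM in null and 12.6 to 14.6 CPM in heterozygous libraries (0.12, SE 0.13).

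Of the 4 structural microtubule-associated proteins, Map1a alone had an unadjusted p under 0.05. Map1a, which accumulates as neurons mature, was at 315, 353 and 335 CPM in null pups 2, 4 and 10, against 385, 415 and 353 CPM in heterozygous pups 6, 7 and 11. The groups touched without crossing, null pup 4 and heterozygous pup 11 being the same to the digits given. The mean was 334 ± 18.7 CPM in null and 384 ± 31 CPM in heterozygous pups (SD, n = 3 each), a log2 fold change of -0.20 (SE 0.08, interval -0.37 to -0.03), and it did not pass (edgeR unadjusted p = 0.0258, adjusted p = 0.639). The unadjusted p was under 0.05 in 11 of 15 alternatives and above it without null pup 2, null pup 10, heterozygous pup 6 or heterozygous pup 7. Without heterozygous pup 7, the library with the highest hindbrain marker sum, the log2 fold change was -0.14 (edgeR unadjusted p = 0.135). The part of hindbrain tissue in the Map1a values was not tested.

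Its relative Map1b, an early protein of growing axons, was at 3208, 3060 and 2788 CPM in null pups 2, 4 and 10, against 2857, 2856 and 2584 CPM in heterozygous pups 6, 7 and 11. Null pup 10 lay inside the heterozygous range (0.13, SE 0.07, interval -0.02 to 0.27, edgeR adjusted p = 0.765). Whether Map1a and Map1b differ from each other in response was not tested. Map2, the dendritic protein, was at 1136, 1071 and 1097 CPM in null pups, against 1099, 1047 and 1115 CPM in heterozygous pups, and the groups interleaved (0.02, SE 0.06, interval -0.11 to 0.15, adjusted p = 0.977). Mapt, which encodes the axonal protein tau, was at 2986, 2975 and 2763 CPM in null pups, against 2842, 2777 and 2619 CPM in heterozygous pups. Only null pup 10 lay below the highest heterozygous values (0.08, SE 0.06, adjusted p = 0.842).

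The stathmins, which bind tubulin dimers and promote disassembly, had 4 negative fold changes, and 0 of the 4 had an unadjusted p under 0.05. Stmn2, the stathmin of growing axons, was the most abundant per length (738 CPM per kb). It was at 1362, 1404 and 1290 CPM in null pups 2, 4 and 10, against 1580, 1442 and 1355 CPM in heterozygous pups 6, 7 and 11 (-0.11, SE 0.07, interval -0.26 to 0.04, edgeR adjusted p = 0.816). Stmn3 was at 595 to 608 CPM in null and 588 to 743 CPM in heterozygous libraries (-0.15, SE 0.08, adjusted p = 0.778). In both genes heterozygous pup 11 lay within or below the null range.

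Stmn1 and Stmn4 varied more between pups than between genotypes. Stmn1, the stathmin of dividing and newborn cells, was at 299, 427 and 404 CPM in null pups 2, 4 and 10, against 681, 274 and 382 CPM in heterozygous pups 6, 7 and 11. The highest and the lowest library both belonged to the heterozygous group, a ratio of 2.48, the widest of the 32 genes, where the median ratio was 1.23 and over all genes 1.35. Its fold change was -0.24 with an interval of -1.25 to 0.77, and it was 0.20 without heterozygous pup 6. In the annotation 36.5% of its 50-base words occur in other genes, mostly the pseudogene Gm11223. Stmn4 was at 377, 474 and 279 CPM in null pups, against 486, 406 and 313 CPM in heterozygous pups (-0.09, interval -0.65 to 0.47), with null pup 10 and heterozygous pup 11 lowest in their groups. It shares 0% of such words.

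Cdk5 and its activators gave overlapping values. Cdk5 was at 95.6, 90.5 and 92.6 CPM in null pups 2, 4 and 10, against 107, 96.9 and 91.6 CPM in heterozygous pups 6, 7 and 11 (-0.08, SE 0.08, edgeR adjusted p = 0.901). Cdk5r1, which encodes the activator p35, was at 554, 557 and 529 CPM in null pups, against 535, 548 and 508 CPM in heterozygous pups (0.04, SE 0.06, interval -0.09 to 0.18, adjusted p = 0.946). Cdk5r2, which encodes p39, was at 226 to 266 CPM in null and 236 to 283 CPM in heterozygous libraries (-0.14, SE 0.09). Per length, the activator Cdk5r1 (130 CPM per kb) was above the kinase Cdk5 (46.5 CPM per kb).

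**Figure D4:**
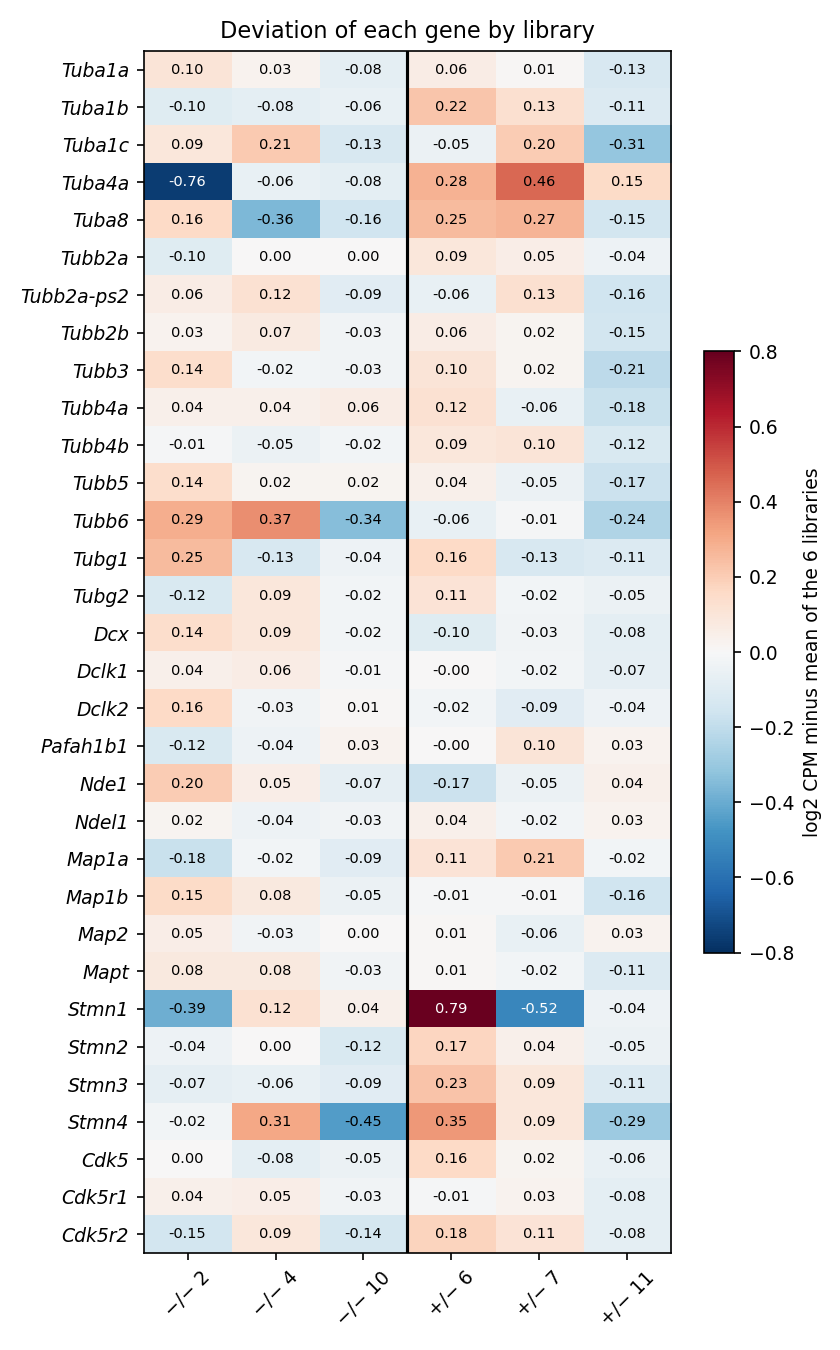
Log2 CPM of each of the 32 tested genes minus its mean over the 6 libraries (columns, Celf2 -/- left of the line, Celf2 +/- right of it; rows, genes; colour and printed value, log2 units). Stmn1 in heterozygous pup 6 (0.79) and Tuba4a in null pup 2 (-0.76) are the farthest from their means, and the column of heterozygous pup 11 is mostly negative.

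The values of the set also varied between individual pups within a genotype. Heterozygous pup 11 was above its genes' own means for 5 of the 32 genes, with a median deviation of -0.10 on the log2 scale. Null pup 10 was above for 7 genes (-0.03), whereas heterozygous pup 6 was above for 22 (0.07), null pup 2 for 20 (0.04), null pup 4 for 19 (0.03) and heterozygous pup 7 for 18 (0.02). The order of these pups mixes the genotypes. The same counts were not made over all genes, so whether this variation is particular to the set was not tested. The part of scaling in it was not tested either.

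The wider microtubule and actin machinery was read from 8 further lists with 146 tested genes. Of these, 0 passed over all genes by edgeR or DESeq2, and 12 had an unadjusted p under 0.05 (8.22%, against 7.06% of all genes), 10 of them higher in null pups and 2 lower. Dynein and dynactin, the motor that moves the nucleus, held 4 of the 12 among 22 genes. Dync1i1, an intermediate chain, was at 137, 150 and 146 CPM in null pups 2, 4 and 10, against 130, 110 and 109 CPM in heterozygous pups 6, 7 and 11 (0.31, SE 0.09, edgeR unadjusted p = 0.00431, adjusted p = 0.496). Dync1h1, the heavy chain that carries the motor domain, was at 1069, 969 and 963 CPM in null pups, against 870, 858 and 873 CPM in heterozygous pups (0.21, SE 0.06, adjusted p = 0.527). The light chain gene Dynlt3 had the opposite sign (-0.33, SE 0.10, adjusted p = 0.523), and the median of the list was -0.01.

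The kinesin list holds motors, their light chains and an adaptor, and kinesins that act on microtubules without walking. Of its 20 tested genes, 4 had higher values in null pups at an unadjusted p under 0.05, where 4.13% of all genes did, and 0 lower, where 2.93% did. They were Kif26a (0.31, SE 0.09), Kif1b (0.16, SE 0.06), Kif3c (0.20, SE 0.08) and Kif21b (0.18, SE 0.07), with edgeR adjusted p-values of 0.527 to 0.639, and the list median was 0.05. Among 21 genes for microtubule ends, severing and anchoring, Clasp1 (0.19) and Ckap5 (0.18), which bind growing ends, had edgeR unadjusted p-values of 0.0128 and 0.0329. Of the 21 fold changes, 18 were positive (median 0.09), against 7919 of the 15925 over all genes. The alternatives were not summarised for the 8 lists. The median of all genes was -0.086 with library size alone and 0.003 with Rn45s removed. The part of scaling in the count of positive fold changes was not tested. Among 25 other microtubule-associated proteins and their kinases, Map7, a partner of kinesin-1, was at 10.2 ± 0.781 CPM in null and 13.6 ± 0.688 CPM in heterozygous pups (-0.41, SE 0.13, edgeR adjusted p = 0.548), and the median was 0.00. Among 23 genes of the actin side of migration, Cttn, which encodes the actin-binding protein cortactin, was the 1 gene under the unadjusted threshold (0.18, SE 0.06, edgeR unadjusted p = 0.0114, adjusted p = 0.57).

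The tubulin folding cofactors (7 genes, median -0.06), the gamma-tubulin ring complex (13 genes, median 0.10) and the tubulin modification enzymes (15 genes, median 0.02) held 0 genes with an unadjusted p under 0.05. Folding cofactors assemble the alpha-beta dimer, and the modification enzymes add or remove tyrosine, glutamate or acetyl groups on it. All 7 folding cofactor genes had fold changes between -0.15 and 0.11.

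**Figure D5:**
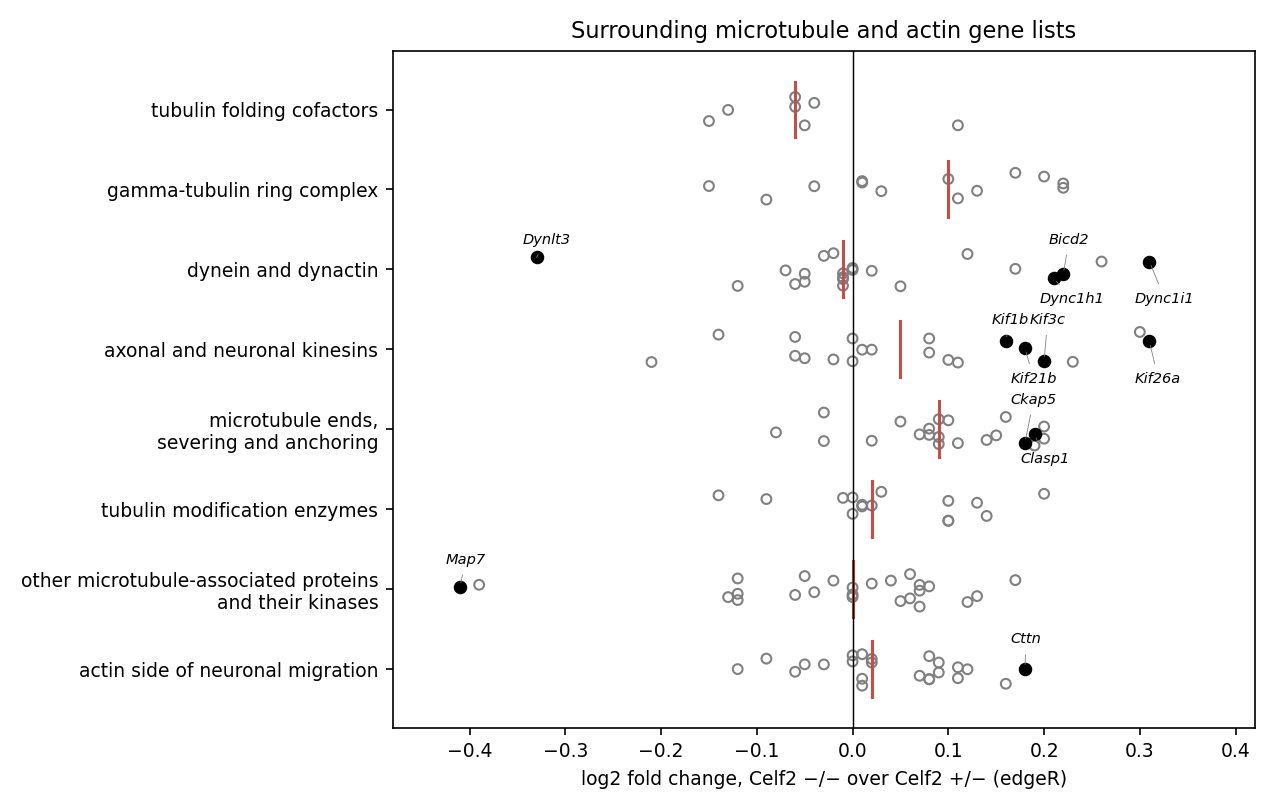
Log2 fold change, Celf2 -/- over Celf2 +/-, of the tested genes in 8 further microtubule and actin lists (points; vertical position within a row has no meaning). Red bars are list medians, between -0.06 and 0.10, and filled, named points are the 12 genes with an unadjusted p under 0.05, 10 to the right of 0 and 2 to the left.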

How the data were processed

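The file the authors deposited gives raw counts for each gene symbol in 6 libraries, all whole numbers, beside a length in bases. Per the labels' protocols, TRIzol-extracted RNA went into a low-input stranded kit for total RNA, whereas the molecule field names poly(A) RNA. The submitters' processing notes list CASAVA, cutadapt, STAR, Picard, bedtools and MACS2, as well as mm9 and hg19, without saying which did what. How reads were assigned to genes, and by which annotation or strand, is not given in the sources used here. Because the reference GRCm38 differs from the builds named, no coordinates are printed.

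Genes were kept by edgeR's filterByExpr (15925 of 24391) and tested in R 4.3.3 by edgeR 4.0.16 (TMM scaling, glmQLFit with robust dispersion, glmQLFTest). The Benjamini-Hochberg adjustment covered all genes tested, with a threshold of 0.05. Dividing a fold change by the square root of its F statistic gave the SE. CPM uses TMM-scaled library sizes. CPM per kb divides by the deposited length. Alternatives were DESeq2 1.42.0 and limma-voom (limma 3.58.1), other scalings and filters, and leaving out each library. The lowest chi-square per gene between 2 libraries was 13.45, so no pair of libraries looked like a duplicate.

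Values are given per library for the 3 alpha-, 3 beta- and 2 gamma-tubulins highest per length, for 9 genes that represent roles and for every tested gene of these 35 with an unadjusted p under 0.05 or no overlap. From each surrounding list, up to 3 genes with the smallest unadjusted p under 0.05 are named. Other genes given per library (Stmn1, Stmn4, Stk16), Kif21b and the printed sites were chosen after their values were seen. The genes and lists were chosen with earlier results of these data known. Of 148 listed surrounding genes, 147 were in the table.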

Additional observations from a re-analysis of the deposited data

How the results depend on the processing

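Over all genes, the count called was 1 with edgeR and the chosen settings, 0 with DESeq2 size factors, a CPM minimum of 1 in 3 libraries, limma-voom, no robust estimation or Rn45s removed, 2 with upper-quartile factors or library size alone, 3 with no low-count filter and 64 with the DESeq2 Wald test; without single libraries it was 0 to 4. The count at an unadjusted p under 0.05 was 599 to 1554 without single libraries, against 1124, of which 658 were higher and 466 lower in null pups (149 higher and 742 lower with library size alone, 531 higher and 591 lower with upper-quartile factors). The calls among the 32 genes stayed at 0 in every alternative. Their number at an unadjusted p under 0.05 was 3, 2 (without Dcx) with upper-quartile factors, the DESeq2 Wald test or no robust estimation, 5 with library size alone (Map1a, Stmn2, Stmn3, Tuba1b and Tuba4a, all lower) and 1 to 6 without single libraries: 1 without null pup 2 or heterozygous pup 7 (Tuba4a), and 6, all lower, without heterozygous pup 11. Their median log2 fold change was -0.06 with library size alone, where that of all genes was -0.086, and -0.02 to 0.07 without single libraries. With library size alone 10 of the 32 turned sign: Tuba1a -0.05, Tubb2a-ps2 -0.02, Tubb2b -0.04, Tubb3 -0.03, Tubb4a 0.00, Tubg1 -0.04, Dclk1 -0.03, Map2 -0.07, Mapt 0.00 and Cdk5r1 -0.04, and Map2 (0.00) also with upper-quartile factors (0.00 here lies just below 0). Without single libraries signs turned for Tuba1a (-0.01 to 0.08), Tuba1c (-0.01 to 0.24), Tubb2a-ps2 (0.00 to 0.15), Tubb2b (-0.02 to 0.09), Tubb3 (-0.03 to 0.12), Tubg1 (-0.06 to 0.15), Tubg2 (-0.08 to 0.02), Map2 (-0.01 to 0.04), Stmn1 (-0.50 to 0.20) and Stmn4 (-0.29 to 0.08). The cause was not tested. No paired analysis was possible because the labels give no litter. Counts were too few to test Tuba3a, Tuba3b and Tubb1, and Tuba8 was at most 1.14 CPM.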
